A study of Arabidopsis thaliana with 8 samples.

Results

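The plastid genome of Arabidopsis thaliana encodes subunits of the photosynthetic complexes and part of the machinery that transcribes and translates them. The transcripts of its protein-coding genes were followed here on 1-colour Affymetrix arrays of shoot apices. The members are the probe sets that name 1 plastid gene, found by a plastid locus tag or by a plastid gene symbol within a fixed run of probe numbers. There are 69 of them among 22746 probe sets, once 64 Affymetrix control probe sets are set aside. A further 8 plastid probe sets are joined to a pair of gene entries in the annotation, most of them for genes of the inverted repeat such as ndhB, rps7, rps12, rpl2, rpl23 and ycf2, and were left out. By function the 69 genes comprise 15 of photosystem II, 7 of photosystem I and its assembly, 6 of the cytochrome b6f complex, 6 of the ATP synthase, 1 of Rubisco, 10 of the NDH complex, 4 of the plastid RNA polymerase, 8 of the small and 7 of the large ribosomal subunit, and 5 with other roles.

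All plants were of the Landsberg erecta (Ler) ecotype, and total RNA came from apices harvested at 14 days after sowing (DAS) in short days. The groups are wild type with 4 arrays, the fil-8 yab3-2 mutant (fil yab3) with 2 arrays, and the fil-8 yab3-2 yab5-1 mutant (fil yab3 yab5) with 2 arrays. FIL, YAB3 and YAB5 are transcription factors of the YABBY family, which promotes blade outgrowth and the identity of the lower leaf side, and the series was designed to set each mutant against wild type of similar age. Separate plantings for the arrays of a group are not mentioned in the labels, so the p-values cover the spread between these arrays only, and that may be technical. Values are log2 signals computed by the submitters with GCRMA, which subtracts a background modelled from probe sequence and gives all arrays 1 distribution of signals. They run from a floor of 2.1 to 15.76, and a signal above 4 is called detected here. In tissue with many cell types, fewer cells of a type and less RNA per cell cannot be told apart.

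YAB3 read 8.46, 8.35, 9.48 and 8.91 on wild-type arrays 1 to 4, 3.35 and 4.99 in fil yab3, and 4.40 and 5.50 in fil yab3 yab5. YAB5 read 7.52, 7.17, 5.51 and 5.32 in wild type, 6.03 and 5.60 in fil yab3, and 5.28 and 5.02 in fil yab3 yab5. YAB3 was lower on every mutant array than on every wild-type array. YAB5 was lower on both yab5-1 arrays than on the wild-type and fil yab3 arrays, but the nearest arrays, 5.28 and 5.32, lay close together. Whether either probe set lies in the changed part of its gene is not known here, and FIL is not analysed here. Of 13 shoot apex marker genes only CLV3 and UFO have a named probe set. UFO stayed at the floor, and CLV3, the meristem peptide ligand, read 4.32 and 3.89 in fil yab3 and at most 2.59 on every other array. No marker on the root list has a named probe set.

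Chloroplasts use 2 kinds of RNA polymerase. A bacterial-type enzyme, whose core subunits the plastid genes rpoA, rpoB, rpoC1 and rpoC2 encode, transcribes mainly the photosynthesis genes, and a phage-type enzyme encoded in the nucleus transcribes chiefly housekeeping genes, the rpoB operon among them. Many plastid genes are transcribed together in long operons that are later cut and spliced, so neighbouring genes often share a primary transcript. Plastid messages generally lack the stable poly(A) tails of nuclear messages. The labels name the standard array labelling protocol without its primer, and the part that labelling plays in the plastid signals was not tested.

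Wild-type arrays 1 and 2 stood apart from the other 6 arrays in nearly every plastid gene. The median over the 69 genes was 11.21 and 11.18 on these arrays. It was 3.06 and 3.69 on wild-type arrays 3 and 4, 4.11 and 6.11 in fil yab3, and 3.39 and 3.93 in fil yab3 yab5. On wild-type arrays 1 and 2, 68 of the 69 genes lay above 4, and 48 lay above 10. On wild-type arrays 3 and 4 only 18 and 29 genes lay above 4, and none lay above 10. The 2 pairs carry the same labels, which give no reason to prefer either. By choice, all mutant comparisons below use wild-type arrays 3 and 4 and give arrays 1 and 2 apart. That choice sets the direction against wild type. With arrays 1 and 2 instead, the median differences over the genes were -5.62 in fil yab3 and -6.76 in fil yab3 yab5.

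**Figure D1:**
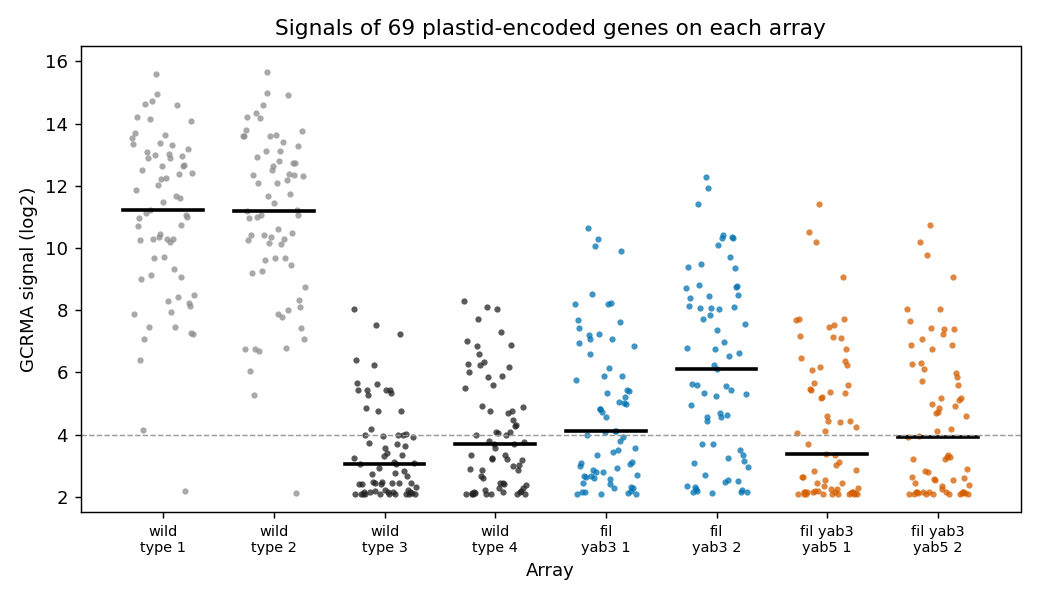
Log2 signals of the 69 plastid-encoded genes (vertical axis) on each of the 8 arrays (horizontal axis); each point is 1 gene, the black bar is the array's median over the genes, and the dashed line marks a signal of 4. Wild-type arrays 1 and 2 have medians of 11.21 and 11.18, and the other 6 arrays have medians from 3.06 to 6.11.

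The difference between the wild-type pairs had a median of 7.52 log2 units over the 69 genes, against 0.00 over all 22746 probe sets. It exceeded 4 log2 units in 65 of 69 genes, against 0.519% of all probe sets. The 4 genes under that size were ndhF at 0.06, rpoB at 2.62, petN at 2.93 and psbN at 3.98. ndhF, which encodes a membrane subunit of the NDH complex, lay at 2.2 and 2.12 on wild-type arrays 1 and 2 and was the 1 gene not detected there. ndhD, which encodes another membrane subunit of that complex, differed most, by 11.10, with 13.17 and 13.27 on arrays 1 and 2 and 2.1 and 2.14 on arrays 3 and 4. Next came atpB, for the catalytic beta subunit of the ATP synthase, at 10.70, psaI, for a small photosystem I subunit, at 10.69, clpP, for the proteolytic subunit of the Clp protease, at 10.60, and rpoC1 at 10.29.

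Every functional class shared this gap. Class medians of the difference ran from 6.17 in the RNA polymerase genes to 8.17 in the ATP synthase genes and 8.42 in the genes with other roles, with 7.05 for photosystem II, 7.52 for photosystem I, 7.03 for cytochrome b6f, 6.42 for NDH, 7.89 for the small and 6.90 for the large ribosomal subunit. Within the pair, arrays 1 and 2 differed by a median of 0.02. The 8 plastid probe sets left out moved likewise, from medians of 10.84 and 10.85 on arrays 1 and 2 to 2.19 and 2.62 on arrays 3 and 4.

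Other signals moved along with this gap. Of 23 mitochondrial probe sets, 5 and 3 lay above 4 on wild-type arrays 1 and 2 and none on the other 6 arrays. The 8 poly(A) spike-in probe sets nearest the 3' end had medians of 7.55 and 7.89 on these arrays and 2.99 to 6.22 on the others, and the 18 hybridization spike-in probe sets had 10.24 and 10.13 against 6.56 to 8.30. The 25S ribosomal RNA probe set read 3.92 and 3.17 on arrays 1 and 2 and 2.1 elsewhere. The mean excess of 3' over 5' signal, over 6 control transcripts, was 1.29 and 1.44 log2 units on arrays 1 and 2. It was 0.47 to 0.73 on the remaining arrays except fil yab3 array 1, where it was 1.41. The share of all probe sets above 4 was 58.2% to 58.8% on every array. The part these features play in the plastid signals was not tested.

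Against wild-type arrays 3 and 4, plastid genes read higher in fil yab3 almost throughout. The difference of means was above 0 in 68 of 69 genes, with a median of 1.43 log2 units, against 0.00 over the 13664 probe sets that were tested. It ran from -0.31 in psbT to 5.19 in psbM. Of the 68 genes detected on at least 2 of all 8 arrays, 51 had both fil yab3 arrays above both wild-type arrays, against 22.3% of probe sets under that filter. None had both below, against 21.7%. Differences of genes near the floor are not measured, and medians over all 69 genes or over a class include such genes.

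The difference was larger on fil yab3 array 2. Its signal was above that of array 1 in 60 of 69 genes, by a median of 1.24 log2 units. Array 1 was above wild-type array 3 in 67 genes and above wild-type array 4 in 52. Array 2 was above them in 69 and 68 genes. Array 2 also had the highest poly(A) spike-in median of the 6 arrays, at 6.22. Its hybridization spike-in median, 7.73, was below the 8.30 of fil yab3 array 1 and the 7.99 of wild-type array 3. Wild-type array 3 had the next highest poly(A) median, 4.92, but the lowest plastid median, 3.06. The part that spike-in signals play was not tested. Without fil yab3 array 2 the median difference over the genes was 0.65, and without array 1 it was 2.30.

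Differences were tested with limma over these 6 arrays in 3 groups, on probe sets above 4 on at least 2 arrays, with Benjamini-Hochberg adjustment over all of them. Of the 69 genes, 37 passed that filter. Of the 32 others, 20 were above 4 on no array and 12 on a single array, which for 11 was fil yab3 array 2. Only 2 genes, clpP and psbB, passed through the fil yab3 arrays alone, and 17 were above 4 on all 6 arrays. psbJ, rpl14, rps3, rpl32 and petA passed through arrays of both mutants, with no wild-type array above 4. Genes that passed through mutant arrays only favour higher mutant signals in the counts over the 37. Among the 37, both fil yab3 arrays were above both wild-type arrays in 33, against 22.1% of the probe sets tested, and below in none, against 21.8%. In fil yab3 against wild type, rpoA and psaB passed an adjusted p of 0.05. Both were higher, and they are 5.41% of the 37, against 0.359% of all probe sets tested (0.161% counting higher ones alone). With all 8 arrays fitted in 4 groups 6 of 68 genes passed (rpoA, psaB, psbM, rps4, rpl32 and ndhI), against 0.583%. At an unadjusted p of 0.05 the count was 25 of 37, against 14.4%.

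rpoA (ArthCp055), for the alpha subunit of the bacterial-type polymerase, read 7.22 and 6.88 on wild-type arrays 3 and 4, 9.92 and 10.35 in fil yab3, and 9.06 on both arrays of fil yab3 yab5. The groups did not overlap. Its difference in fil yab3 was 3.09 ± 0.23 log2 units (SE, limma adjusted p = 0.0215). On wild-type arrays 1 and 2 it read 12.39 and 12.38. The difference lost its call on leaving out either wild-type or either fil yab3 yab5 array, with limma adjusted p from 0.133 to 0.233, and kept it without either fil yab3 array.

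psaB (ArthCp021), for a core protein of the photosystem I reaction centre, read 4.18 and 4.93 on wild-type arrays 3 and 4, 8.51 and 7.73 in fil yab3, and 5.67 and 6.11 in fil yab3 yab5. It was 1 of 9 genes in which fil yab3 array 1 was the brighter array. The difference in fil yab3 was 3.56 ± 0.38 (SE, limma adjusted p = 0.0456), and it missed the threshold on leaving out any 1 of the 6 arrays, with adjusted p from 0.0561 to 0.233. psaA, the partner of psaB in the same reaction centre and its neighbour on the plastid genome, was detected on fil yab3 array 2 alone of the 6, at 5.33 against 2.73 to 2.86 on the other 5, and was not tested.

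Photosystem II genes had a median difference of 1.82 in fil yab3, and in 11 of 15 both arrays were above both wild-type arrays. Over all 69 plastid genes that held for 52. psbM (ArthCp016), for a small subunit at the dimer interface, differed most of all plastid genes. It read 4.85 and 6.84 in wild type and 10.64 and 11.43 in fil yab3, a difference of 5.19 ± 0.67 that did not pass (SE, limma adjusted p = 0.0678). psbE, for the alpha subunit of cytochrome b559, read 3.42 and 4.05 against 6.15 and 8.03. psbA, for the D1 reaction centre protein, was flat by comparison. Its signals were 8.04 and 8.30 in wild type and 8.19 and 8.70 in fil yab3, which overlap, and the difference was 0.28 ± 0.25.

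The other photosystem II core genes lay nearer to wild type than psbM or psbE. psbD, for the D2 protein, read 5.45 and 7.71 against 7.20 and 8.81, and psbC, for the inner antenna protein CP43, read 5.28 and 6.59 against 6.58 and 8.08. psbB, for the other inner antenna protein CP47, read 2.77 and 3.36 against 4.11 and 4.63. psbD and psbC overlapped, and their wild-type arrays themselves lay 2.26 and 1.31 apart. psbT, a small subunit gene that is co-transcribed with psbB, was the single gene with a lower mean, from 2.1 and 4.0 in wild type and 2.94 and 2.55 in fil yab3, none above 4.

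In the remaining photosynthetic classes the fil yab3 medians were 1.41 for photosystem I, 1.29 for cytochrome b6f and 1.64 for the ATP synthase. psaJ, for a small photosystem I subunit, read 5.44 and 7.30 in wild type and 8.24 and 10.31 in fil yab3. petB, for cytochrome b6, read 3.98 and 6.18 against 7.62 and 9.70, with a difference of 3.58 ± 0.92 that did not pass. atpE, for the epsilon subunit of the ATP synthase, read 5.64 and 5.84 against 7.24 and 8.46. All 3 genes separated the groups. rbcL, for the large subunit of Rubisco, read 2.92 and 4.75 against 4.81 and 8.07, a difference of 2.6 ± 1.14 (SE, limma adjusted p = 0.380), and its fil yab3 arrays lay farther apart than the lower of them lay from wild type. At the dim end, psaC, atpI and petG were at most 2.43 in wild type, and of these only petG was detected in fil yab3, at 4.57 on array 2.

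The NDH complex, which carries electrons around photosystem I, had a smaller median of 0.78, and 8 of its 10 genes were not tested for want of signal. ndhI and ndhC were the 2 tested. ndhI (ArthCp078), for an iron-sulphur subunit, read 3.91 and 4.88 in wild type and 6.86 and 7.57 in fil yab3. ndhC (ArthCp027), for a membrane subunit, read 7.54 and 8.09 against 10.28 and 11.92. Their differences were 2.82 ± 0.41 and 3.29 ± 0.58, and neither passed (limma adjusted p = 0.0830 and 0.120). ndhH stayed near the floor, at most 2.14 on the 6 arrays, although it read 7.25 and 7.06 on wild-type arrays 1 and 2.

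**Figure D2:**
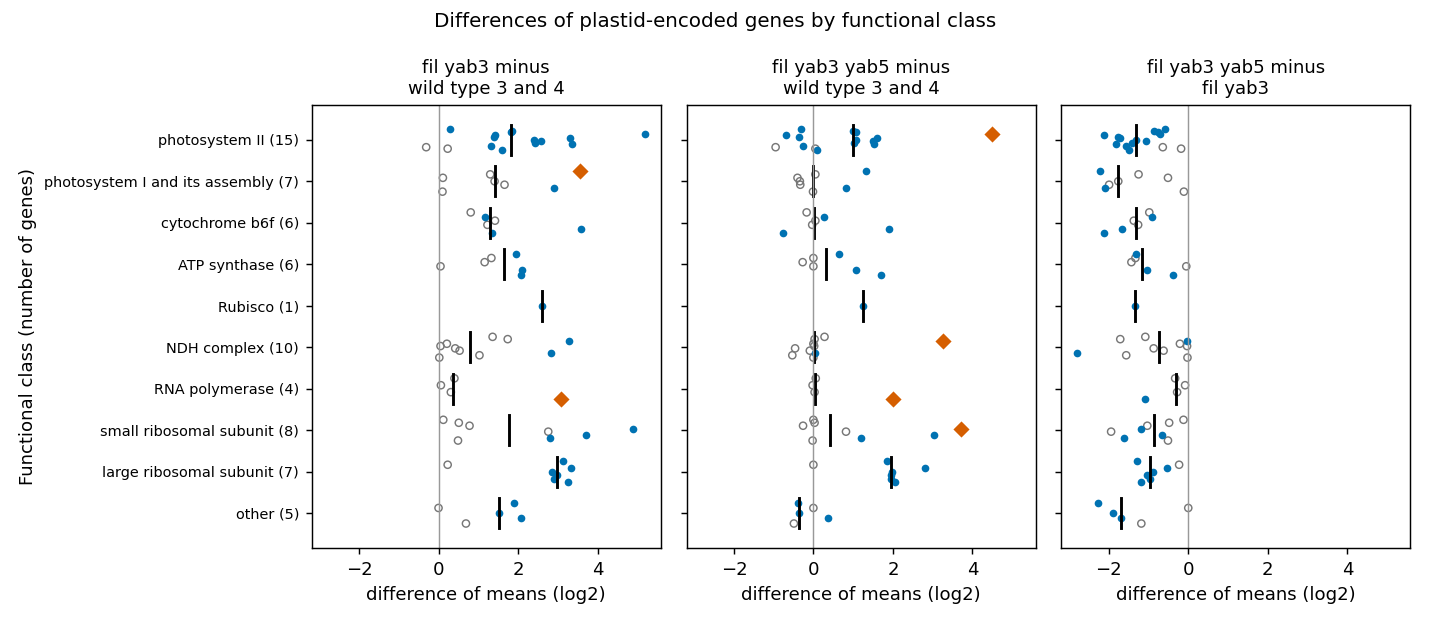
Differences of group means in log2 units (horizontal axis) for each functional class (vertical axis) in the 3 comparisons; filled points are tested genes, open points are genes not tested, orange diamonds passed an adjusted p of 0.05, and the black bar is the class median. The large ribosomal subunit has the highest class medians in both mutants, 2.97 and 1.95, and the right panel has no gene above 0. Class medians include the genes not tested, whose share differs between classes.

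Ribosomal protein genes held the largest class median in fil yab3. It was 2.97 for the large subunit, where both fil yab3 arrays were above both wild-type arrays in 7 of 7 genes. It was 1.77 for the small subunit, where that held for 6 of 8, and over all 69 plastid genes that held for 52. Of the large subunit genes 6 of 7 were tested, but only 3 of 8 of the small subunit. The tested rps4, rps3 and rps19 of the small subunit differed by 4.88, 3.72 and 2.80, and no large subunit gene by more than 3.33. The class medians thus do not rank the classes by size of difference. rps4 (ArthCp024), for a small subunit protein, read 6.23 and 6.34 in wild type and 10.05 and 12.28 in fil yab3, a difference of 4.88 ± 0.70 (SE, limma adjusted p = 0.0830). rps3 (ArthCp061) read 2.82 and 3.70 against 5.20 and 8.75, at least 7.89-fold higher, where the bound sets the fil yab3 mean against a signal of 4, with a limma adjusted p of 0.267. rpl33 read 5.35 and 5.88 against 7.09 and 10.42. These genes separated the groups but spread widely within fil yab3. rpl20 and rps16, for a large and a small subunit protein, were not detected on the 6 arrays.

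The 5 genes of other function had a median of 1.52. cemA, for an inner envelope protein, read 3.97 and 5.61 in wild type and 5.88 and 6.74 in fil yab3. matK, for the maturase that splices plastid introns, read 3.24 and 5.51 against 5.77 and 6.78. accD, for a subunit of the plastid acetyl-CoA carboxylase, stayed at or near the floor on all 6 arrays.

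In fil yab3 yab5 many of the detected plastid genes read higher than on wild-type arrays 3 and 4, while genes near the floor pulled the median over all genes to about 0. The median difference over the 69 genes was 0.05, against -0.04 over all probe sets tested, and 41 genes were above 0. Of the 68 genes detected on at least 2 of all 8 arrays, 26 had both mutant arrays above both wild-type arrays, against 28.3% of probe sets, and 5 had both below, against 34.5%. Those 5 were psbA, petN, ycf3, ccsA and ndhA, and all but psbA were not above 4 on any array of either group. The share that was higher is 38.2% of the genes. Among the 37 genes tested, 30 had a difference above 0 and the median was 1.19. In 23 of them (62.2%) both mutant arrays were above both wild-type arrays, against 28.5% of the probe sets tested, and in 1, psbA, both were below, against 34.7%. None of the 37 had passed the filter through fil yab3 yab5 arrays alone. However, psbJ, rpl14, rps3 and rpl32, which are among the 23, had passed through mutant arrays only. The filter thus favours higher mutant signals among the 37.

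rpoA, psbM, ndhC and rps4 rose in fil yab3 yab5 at an adjusted p of 0.05. These 4 are 10.8% of the 37 genes tested, close to the 9.26% of all probe sets (4.14% counting higher ones alone). With all 8 arrays fitted in 4 groups 5 of 68 passed, against 10.5%. At an unadjusted p of 0.05 the count was 8 of 37, against 28.4%. In a limma fit of only wild-type arrays 3 and 4 and fil yab3 yab5, 13 genes passed, and with no filter on dim probe sets none did.

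psbM was highest by difference again, at 10.51 and 10.18 in fil yab3 yab5, 4.50 ± 0.67 above wild type (SE, limma adjusted p = 0.0219). rps4 read 10.21 and 9.77, a difference of 3.71 ± 0.70 (limma adjusted p = 0.0368), and ndhC read 11.41 and 10.73, a difference of 3.26 ± 0.58 (limma adjusted p = 0.0325). rpoA differed by 2.01 ± 0.23 (limma adjusted p = 0.0121). All 4 genes separated the mutant from wild-type arrays 3 and 4, and all 4 lay below wild-type arrays 1 and 2, where psbM read 14.63 and 14.33, rps4 14.73 and 14.60, and ndhC 13.0 and 13.11. Without either fil yab3 yab5 array all 4 calls were lost, with limma adjusted p from 0.109 to 0.195. Without wild-type array 3 none passed, and without wild-type array 4 only psbM did.

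Other photosynthetic genes did not pass the test. Class medians, which include undetected genes, were -0.01 for photosystem I, 0.01 for cytochrome b6f, 0.01 for NDH, 0.32 for the ATP synthase and 0.99 for photosystem II, and rbcL, at 5.22 and 4.97, differed by 1.26 ± 1.14 (SE, limma adjusted p = 0.521). Several detected genes had both fil yab3 yab5 arrays above both wild-type arrays, among them petB with a difference of 1.91, atpB with 1.69, psbE with 1.53, psbL with 1.51, psaB with 1.33, and psbI and atpE with 1.07 each. The most negative differences were psbT at -0.95, petD, for subunit IV of cytochrome b6f, at -0.77, and psbD at -0.69. petD and psbD did not pass, and psbT, not above 4 on any of the 6 arrays, was not tested. In all of them the wild-type arrays lay farther apart than the group means. psbA read 7.69 and 8.03, below both wild-type arrays by a mean of 0.30, and that difference did not pass either (SE 0.25, limma adjusted p = 0.481).

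Ribosomal protein genes of the large subunit had a median of 1.95, the highest of the classes in this mutant too. In 6 of 7 both arrays were above both wild-type arrays, which held for 26 of all 69 plastid genes and 23 of the 37 tested. Small subunit genes had a median of 0.43 and the RNA polymerase genes 0.05. These medians include undetected genes, of which the small subunit has more. Its tested genes rps4, rps3 and rps19 differed by 3.71, 3.04 and 1.19, and no large subunit gene by more than 2.80. Relative to each array's own median over the plastid genes, the median of the large subunit class was 0.56 and 0.61 on wild-type arrays 3 and 4, 0.89 and 2.66 in fil yab3, and 2.84 and 1.66 in fil yab3 yab5. On wild-type arrays 1 and 2 it was -0.16 and 0.04. The array medians behind these values lie below 4 on wild-type arrays 3 and 4 and in fil yab3 yab5, so their order between arrays is uncertain.

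Of that class, rpl22, rpl16, rpl14 and rpl36 lie in 1 operon. The rpl23 operon runs from rpl23 to rpoA and encodes ribosomal proteins of both subunits and the polymerase alpha subunit. Of its genes, rps19, rpl22, rps3, rpl16, rpl14, rpl36 and rpoA are members. All 7 had both mutant arrays above both wild-type arrays in fil yab3, with a median of 2.97. All 7 did so in fil yab3 yab5 too, with a median of 1.97. Of these genes rps3 and rpl14 had passed the filter through mutant arrays only, which favours higher mutant signals. Of the 37 plastid genes tested, 33 did so in fil yab3 and 23 in fil yab3 yab5. The shares of all probe sets tested were 22.1% and 28.5%. rpl36 read 4.77 on both wild-type arrays, 5.87 and 10.33 in fil yab3, and 7.73 and 7.40 in fil yab3 yab5. rpl22 read 3.62 and 4.29, then 4.97 and 8.78, then 6.23 and 5.59. In both, the fil yab3 yab5 arrays lay between the 2 fil yab3 arrays.

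These genes also spread widely within fil yab3. Array 2 exceeded array 1 by 4.46 log2 units in rpl36, 4.36 in rpl16, 4.16 in rpl14, 3.81 in rpl22 and 3.55 in rps3, but by 0.43 in rpoA at its end. Only rpoA of the 7 passed the test in either mutant. The 2 mutants share their wild-type arrays, so their differences are not independent of each other.

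**Figure D3:**
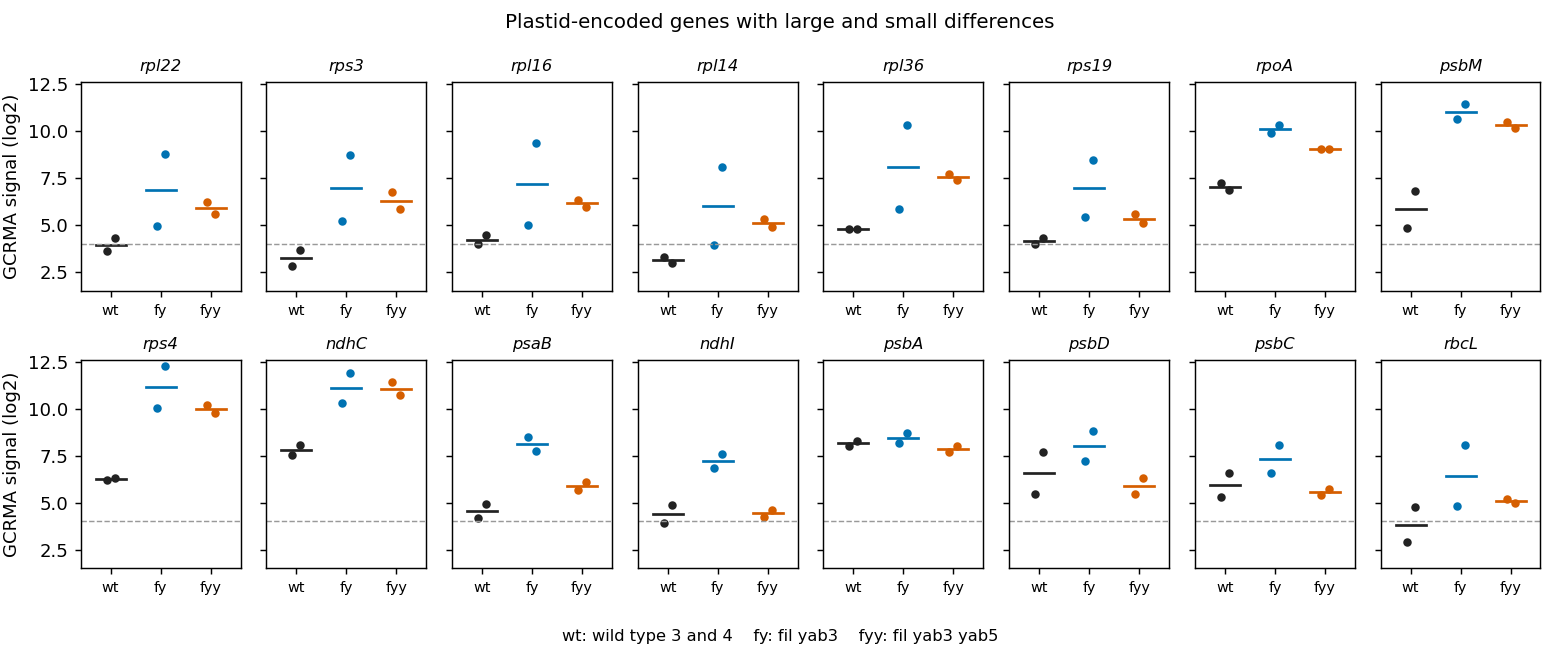
Log2 signals (vertical axes) of 16 plastid genes on wild-type arrays 3 and 4 (wt), fil yab3 (fy) and fil yab3 yab5 (fyy); each point is 1 array, each bar a group mean, and the dashed line marks a signal of 4. In the operon genes of the upper row every mutant array lies above the wild-type arrays, while psbA stays between 7.69 and 8.70.

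The other 4 operons examined had fewer detected genes or a mixed pattern. In the psbB operon (psbB, psbT, psbH, petB and petD) the median was 1.35 in fil yab3 and -0.27 in fil yab3 yab5, and only petB had both fil yab3 yab5 arrays above both wild-type arrays, at 7.10 and 6.87. In the atpI, ndhH and ndhC operons 1 gene each was tested (atpA, ndhI and ndhC), and the others lay too near the floor to show a pattern. ndhC alone of its operon was detected in fil yab3 yab5, while its neighbours ndhK and ndhJ read at most 2.79. Neighbouring genes outside these operons also had both arrays of each mutant above both wild-type arrays, among them atpE and atpB, and psbK and psbI. In atpB the nearest arrays of fil yab3 and wild type, 4.84 and 4.75, lay close together. rpl33 also separated both mutants from wild type, but its neighbour rps18 was above 4 on fil yab3 array 2 alone and was not tested.

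**Figure D4:**
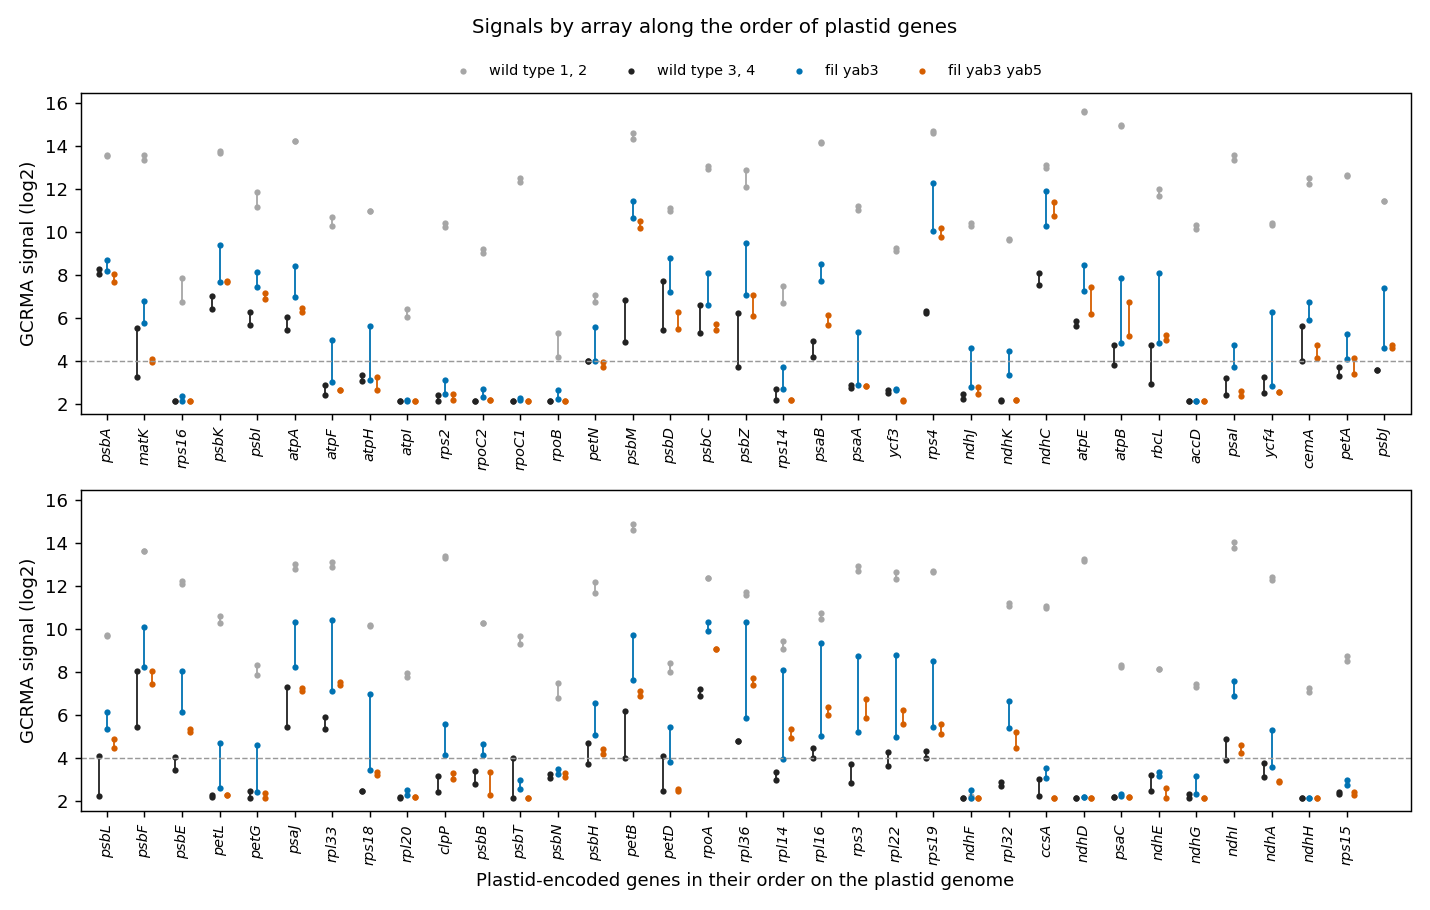
Log2 signals (vertical axes) of the 69 plastid genes in their order on the plastid genome (horizontal axes, both rows); each point is 1 array, a line joins the 2 arrays of a pair, and the dashed line marks a signal of 4. Grey points of wild-type arrays 1 and 2 lie above all others except at ndhF, and the neighbouring genes from rps19 to rpoA have both mutants above wild-type arrays 3 and 4.

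The polymerase that transcribes a gene was used as a second grouping. The 8 genes listed here as dependent on the bacterial-type enzyme (psaA, psaB, psbA, psbB, psbC, psbD, psbE and rbcL) had a median difference of 1.41 in fil yab3 and -0.11 in fil yab3 yab5. The 4 members listed here as transcribed by the nuclear phage-type enzyme (rpoB, rpoC1, rpoC2 and accD) had 0.18 and 0.01. All 4 stayed at or below 2.67 on the 6 arrays, under the level of detection, so their differences are not measured. They were detected on wild-type arrays 1 and 2, where rpoC1 read 12.52 and 12.35 and rpoB 4.16 and 5.29.

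Between the mutants, no plastid gene had a higher mean in fil yab3 yab5. Its difference to fil yab3 had a median of -1.08 over the 69 genes, from -2.79 in ndhI to 0.00, against -0.03 over all probe sets tested. Of the 68 genes detected on at least 2 of all 8 arrays, 48 had both fil yab3 yab5 arrays below both fil yab3 arrays, against 27.4%, and none had both above, against 20.2%. The 48 include genes near the floor in both mutants, such as ndhH, psaC and rpoC1, whose order is not measured. Among the 37 genes tested these counts were 22, against 27.3%, and 0, against 20.4%. limma called 0 of 37 genes, against 1.05% of all probe sets tested. At an unadjusted p of 0.05 the count was 13 of 37, against 16.2%. The median was -1.89 without fil yab3 array 1 and -0.33 without array 2.

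ndhI was lowest by difference, at 4.24 and 4.61 in fil yab3 yab5 against 6.86 and 7.57 in fil yab3, by -2.79 ± 0.41 (SE, limma adjusted p = 0.0573). With all 8 arrays fitted in 4 groups ndhI and psaB passed, 2 of 68 genes, against 1.68%. matK read 4.06 and 3.93 against 5.77 and 6.78, by -2.28 ± 0.76 (limma adjusted p = 0.236), and psaB differed by -2.23 ± 0.38 (limma adjusted p = 0.0800). In these 3 genes the mutants did not overlap, and ndhI and matK in fil yab3 yab5 lay within the span of wild-type arrays 3 and 4. Class medians ran from -0.31 for the RNA polymerase genes to -1.76 for photosystem I, with -0.96 for the large ribosomal subunit.

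Nuclear photosynthesis genes with a named probe set had no comparable shift. Of 47 nuclear photosynthesis genes on the list 8 have a named probe set, and none of the 8 passed in any comparison. Their median differences were 0.07 in fil yab3, 0.09 in fil yab3 yab5 and 0.02 between the mutants. PSBW, for a small photosystem II subunit, had the largest of them in fil yab3 yab5, at 0.22 ± 0.17 (SE, limma adjusted p = 0.445). RCA, for Rubisco activase, read 14.38 and 14.39 on wild-type arrays 3 and 4, 14.21 and 14.38 in fil yab3, and 14.44 and 14.50 in fil yab3 yab5. On wild-type arrays 1 and 2 the 8 genes were higher than on the other wild-type pair, with a median gap of 0.59. Over all arrays these nuclear genes read 13.07 to 15.44, with a table maximum of 15.76. No plastid gene exceeded 12.28 on the 6 arrays compared, so the nuclear and plastid shifts were not set side by side at like signal.

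Of 15 nuclear genes for NDH subunits and assembly, NDHL, NDHN and NDHS were tested, and none passed. Their medians were 0.58 in fil yab3, 0.02 in fil yab3 yab5 and -0.31 between the mutants. The plastid NDH class, of which 2 of 10 genes were tested, had a fil yab3 median of 0.78. On wild-type arrays 1 and 2 these nuclear NDH genes were higher than on arrays 3 and 4, with a median gap of 1.9. NDHN, for a stromal subunit, read 9.68 and 10.08 in wild type, 10.84 and 10.43 in fil yab3, and 9.70 and 10.11 in fil yab3 yab5. Its fil yab3 difference was 0.76 ± 0.26 (SE, limma adjusted p = 0.299). NDHL, for a membrane subunit, read 9.89 and 10.22, then 11.02 and 10.25, then 9.85 and 10.81, and did not separate fil yab3 from fil yab3 yab5. Of 15 nuclear genes for plastid RNA processing only CRP1, a pentatricopeptide repeat protein known from maize to act on petA and petD messages, has a named probe set, and its fil yab3 difference was 0.21 ± 0.17. Of 21 nuclear genes for plastid transcription only RPOTmp, for a phage-type polymerase, has one, and it was not detected.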

How the data were processed

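The authors deposited log2 signals of probe sets. Per the submitters' processing notes, they came from GCRMA under R 2.7.2, with no settings stated there. The table has 22810 probe sets. Gene names came from the platform annotation, updated through the TAIR10.1 gene table. The members, gene lists and operon groupings were chosen with earlier results of these data known. Differences were fitted by lmFit and eBayes of limma 3.58.1, run in R 4.3.3, as two-sided tests with 3 residual degrees of freedom, on 13664 probe sets above 4 on at least 2 of 6 arrays. Benjamini-Hochberg adjustment ran over all of them, with a threshold of 0.05. No list was tested. Probe sets at the floor on all arrays fitted have no spread. The filter kept them out of this fit, and they entered the fit without a filter. A tested probe set may still have a group at the floor, which lowers the spread seen in it. The number of arrays limits the precision.

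Genes named are those with the highest and lowest mean of each class, those called or with the 3 largest differences per comparison and direction, the members of both polymerase lists, and up to 2 genes of each nuclear list. Operon members, genes with extreme differences between wild-type pairs and the other genes named in passing were added after their values were seen. The fit was tested on simulated data. Alternatives were other choices of wild-type arrays, filters, normalization and centring, intensity trend, weights per array, fitting the compared groups alone, a replicate block and leaving out each array. Figures were drawn with matplotlib 3.10.9.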

Additional observations from a re-analysis of the deposited data

How the results depend on the processing

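The direction against wild type depended on the choice of wild-type arrays. With wild-type arrays 1 and 2 in place of 3 and 4, limma called 63 genes in fil yab3 and 64 in fil yab3 yab5, all lower, and 2 between the mutants (ndhI and psaB), and the median differences to wild type were -5.62 and -6.76. Single differences in fil yab3 and fil yab3 yab5 then were -3.44 and -4.14 in psbM, -3.50 and -4.68 in rps4, -7.79 and -8.82 in atpE, -2.25 and -3.33 in rpoA, -6.10 and -7.77 in petB, -3.64 and -5.73 in psaJ, -5.42 and -6.76 in rbcL, -4.26 and -5.54 in rpl33, -6.04 and -8.27 in psaB, -5.86 and -6.53 in rps3, -6.70 and -9.49 in ndhI, and -5.08 and -6.91 in psbE. In fil yab3 alone the sign also turned in cemA (-6.05), petD (-3.61), psbD (-3.05), matK (-7.20), psbA (-5.13), psbC (-5.69) and psbB (-5.92). In ndhC it turned in both mutants. The ndhC means were 11.1 in fil yab3 and 11.07 in fil yab3 yab5, against 13.05 on wild-type arrays 1 and 2. Its fil yab3 yab5 difference, -1.98, missed the threshold (limma adjusted p = 0.0512). The replicate block over all 8 arrays gave the same differences, since only wild-type arrays 1 and 2 share numbers with mutant arrays, and called 58 and 64 genes, all lower. The labels do not say whether the numbers pair samples, and 1 difference per mutant cannot decide it. Array 2 minus array 1 correlated at 0.00532 between the mutants over 13664 probe sets. A block among the mutant arrays called 0 genes, as the fit without it did. With all 4 wild-type arrays as 1 group no gene was called in either mutant, and the medians were -2.02 and -3.04, with psaB at -1.24 in fil yab3 and rpoA at -0.66 and rps4 at -0.49 in fil yab3 yab5.

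With 8 arrays in 4 groups limma called 6 genes in fil yab3, 5 in fil yab3 yab5 and 2 between the mutants. In fil yab3 the count was 0 without a filter (19 at an unadjusted p of 0.05) and in a fit of only the groups compared, and 1 with array weights. In fil yab3 yab5 it was 0 without a filter and 13 in a fit of only the groups compared. Between the mutants it was 1, ndhI, with a filter at 6, quantile normalization, centring or an intensity trend. Leaving out 1 array gave 0 to 8 genes in fil yab3, 0 to 13 in fil yab3 yab5 and 0 to 2 between the mutants, with medians of 0.65 to 2.30, 0.00 to 0.24 and -1.89 to -0.33; the highest counts came without fil yab3 array 1, and 13 also without array 2. The same ranges of counts held with the probe sets tested kept fixed, an alternative chosen after seeing the data. Why the counts moved was not tested. Dim signals limit the differences, since 32 of 69 genes were above 4 on fewer than 2 of the 6 arrays.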
